A study of Mus musculus with 6 samples.

Results

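The Gimap genes (GTPases of immunity-associated proteins) encode small GTP-binding proteins found mainly in lymphocytes. All 8 genes carrying a Gimap symbol (Gimap1, Gimap3, Gimap4, Gimap5, Gimap6, Gimap7, Gimap8 and Gimap9) were taken, out of 25655 gene identifiers listed in the deposited tables, and all 8 were among the 10590 genes tested. They were followed in CD8 T cells, the cytotoxic lineage, from the spleens of female C57BL/6 mice that were wild type (WT) or a knockout of Utx (Utx KO). Utx, also named Kdm6a, is the X-linked demethylase that removes methyl groups from lysine 27 of histone H3. In both groups naive CD44low CD62Lhigh cells first received plate-bound antibodies, 3 µg/ml against TCR-β and 1 µg/ml against CD28, together with 10 ng/ml interleukin 2. After 2 days they were moved to fresh plates and kept in interleukin 2 alone for another 3 days. There were 3 biological replicates per genotype, which the labels do not tie to separate animals, and the p-values below therefore reflect only how these samples varied, which may be technical. Neither the age of the mice nor the way Utx was deleted is given in the sources used here.

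Gimap proteins belong to the AIG1 family, whose GTPase domain is related to that of septins and dynamins and lets several members assemble on intracellular membranes. Several are needed for the survival of resting T and B cells: loss of Gimap5 in rats and mice causes severe lymphopenia, and mature lymphocytes lacking Gimap1 die. The family has also been linked to the Bcl2 proteins that decide on mitochondrial apoptosis, to autophagy through the Atg8-type proteins, and to the kinase GSK3. The comparison addressed how the expression of these genes differed between WT and Utx KO cells 5 days after stimulation of the T-cell receptor.

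The 8 genes lie side by side on chromosome 6, from 48647234 to 48770851 (GRCm38), a stretch of 124 kb that also holds the gene model Gm28053. All are annotated as protein coding. In chromosomal order they are Gimap8 (48647234 to 48660875), Gimap9 (48676129 to 48679114), Gimap4 (48684549 to 48692060), Gimap6 (48701582 to 48708225), Gimap7 (48718621 to 48724636), Gimap1 (48739054 to 48743795), Gimap5 (48746197 to 48754210) and Gimap3 (48764464 to 48770851). Gimap6 and Gimap3 are on the minus strand and the other 6 on the plus strand. The coding sequence is 873 to 984 bases long in 7 of the genes and 2064 bases in Gimap8, which encodes several GTPase domains. Gimap3 and Gimap5 are the most alike pair, with identical bases at 87.8% of the shorter coding sequence. The next pair, Gimap9 and Gimap7, reached 64.9%, and the least alike, Gimap6 and Gimap1, 44.3%.

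Gimap4, the gene that passed the test, and the most alike pair, Gimap5 and Gimap3, were picked after their results were seen. The fitted differences of the pair had opposite signs, but neither gene passed (limma adjusted p = 0.368 for Gimap5 and 0.0649 for Gimap3). The upstream sequences of these 3 genes are shown as a description only. Each is the 250 bases before the RefSeq transcription start (GRCm38.p6), 5′ to 3′ on the gene's strand, at chr6:48684328-48684577 (plus) for Gimap4, chr6:48745947-48746196 (plus) for Gimap5 and chr6:48770852-48771101 (minus) for Gimap3. Capitals mark the letters of a RUNX core (TGTGGT), a forkhead core (TGTTTAC) or an ETS core (AGGAAG) on either strand.
Gimap4: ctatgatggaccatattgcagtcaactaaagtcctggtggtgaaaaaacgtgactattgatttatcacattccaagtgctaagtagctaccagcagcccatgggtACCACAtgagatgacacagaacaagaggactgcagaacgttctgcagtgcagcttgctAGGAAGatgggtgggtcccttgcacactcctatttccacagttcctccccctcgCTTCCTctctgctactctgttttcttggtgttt
Gimap5: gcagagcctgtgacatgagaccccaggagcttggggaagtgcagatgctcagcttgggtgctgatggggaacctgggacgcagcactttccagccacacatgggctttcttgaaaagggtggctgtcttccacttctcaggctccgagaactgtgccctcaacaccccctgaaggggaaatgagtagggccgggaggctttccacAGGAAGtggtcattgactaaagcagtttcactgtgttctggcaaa
Gimap3: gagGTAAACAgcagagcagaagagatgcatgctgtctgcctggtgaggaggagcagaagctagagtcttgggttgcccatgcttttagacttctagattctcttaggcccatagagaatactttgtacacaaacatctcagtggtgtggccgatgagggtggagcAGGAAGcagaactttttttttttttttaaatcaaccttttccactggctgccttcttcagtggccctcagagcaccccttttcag
Motif letters on both strands were searched in the 9 RefSeq upstream windows of the 8 genes (Gimap8 has 2) and in all 32851 windows of that table. The ETS core was present in 7 of the 9 Gimap windows, at every gene but Gimap6 (at Gimap8 in 1 of its windows), and in 29.5% of all windows. The RUNX core was present in 3 windows (Gimap1, Gimap4 and Gimap7) and in 14.1% of all windows. The forkhead core was present in the Gimap3 window and in 3.17% of all windows, and a TCF/LEF core (CTTTGA) in 0 of the 9 and 13.8% of all. None of these motifs contains another, and a match is only a description of the letters. The Gimap windows held 1 to 8 CpG dinucleotides (median 3), against a median of 6 (quartiles 2 and 16) over all windows.

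Libraries held 1619085 to 2529113 reads, and values are in CPM, a gene's reads scaled to an equal total in each library. A count of 0 allows up to 3 reads, or 1.19 to 1.85 CPM, counting error only. All 8 Gimap genes lay far above that limit. Kdm6a, the targeted gene, was at 44.3, 49.3 and 53.6 CPM in WT and at 27.8, 39.4 and 31.5 CPM in Utx KO (limma adjusted p = 0.0123, log2 fold change −0.57, SE 0.15). Its call was lost under 5 of 17 other settings (adjusted p up to 0.12), and a 3′ tag outside the deleted part, which the sources used here do not name, checks nothing. The related demethylase Kdm6b was at 21.9 ± 3.64 and 30.5 ± 10.2 CPM (SD, n = 3, limma adjusted p = 0.211). Of the CD8 T-cell markers, Cd3d, Cd3e, Cd3g, Cd8a and Cd8b1 were found in every library and the receptor constant gene Trac was listed at 0 in all. Cd4 and the neutrophil genes S100a8, S100a9 and Ly6g were also listed at 0 in all libraries. As Trac, itself a marker of CD8 T cells, was at 0 too, a listed 0 here does not show that a transcript was absent. The markers of B cells summed to 2.76 to 5.47 CPM in WT libraries and 0.571 to 1.85 CPM in those of Utx KO, with Cd79a, Ms4a1 and Pax5 at 0. Those of macrophages summed to 6.72 to 8.29 and 7.55 to 12.4 CPM, with Lyz2, Adgre1 and Cd14 at 0, those of natural killer cells to 0.395 to 1.09 and 0 to 1.85 CPM with Ncr1 at 0, and those of dendritic cells to 0 to 1.98 and 0 to 2.47 CPM with Flt3 and Siglech at 0. Erythroid genes summed to 0 CPM in WT and 1.19 to 3.09 CPM in Utx KO, with Hbb-bs at 0. Endothelial markers summed to 30.4 to 33.4 and 25.4 to 37.7 CPM, nearly all from Pecam1, with Cdh5 at 0. The part of these cells in the Gimap values was not tested.

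Of the 8 Gimap genes, 1 rose in Utx KO cells, Gimap4, and 0 fell, at an adjusted p under 0.05 (limma on log2(CPM + 1), Benjamini-Hochberg over all tested genes). In all, 10.8% of the genes tested passed this threshold, 5.28% higher and 5.51% lower in Utx KO, and 1 gene in 8 does not stand apart from that. With DESeq2 on the recovered reads 5.27% passed and with edgeR 12.5%. The fitted fold change was above 0 for 7 of the 8 genes, Gimap5 being the exception, and 5 of the 8, all higher, had an unadjusted p under 0.05, as did 22.7% of all genes tested (11.8% higher, 10.9% lower). With edgeR, DESeq2 and limma-voom 0 Gimap genes were called lower as well. Every Utx KO library was above every WT library for 5 genes (Gimap3, Gimap4, Gimap6, Gimap7 and Gimap9). Groups failed to overlap in this direction for 14.0% of all genes tested, and in either direction for 26.5%. These shares cover tested genes of every level, and none is given for genes at the levels of the Gimap genes. The median log2 fold change of the 8 genes was 0.21, against 0.01 over all genes tested, of which 51.0% were above 0. In bulk RNA fewer cells of a type and less RNA per cell cannot be told apart. The per-library plot shows how small these differences were beside the levels.

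**Figure D1:**
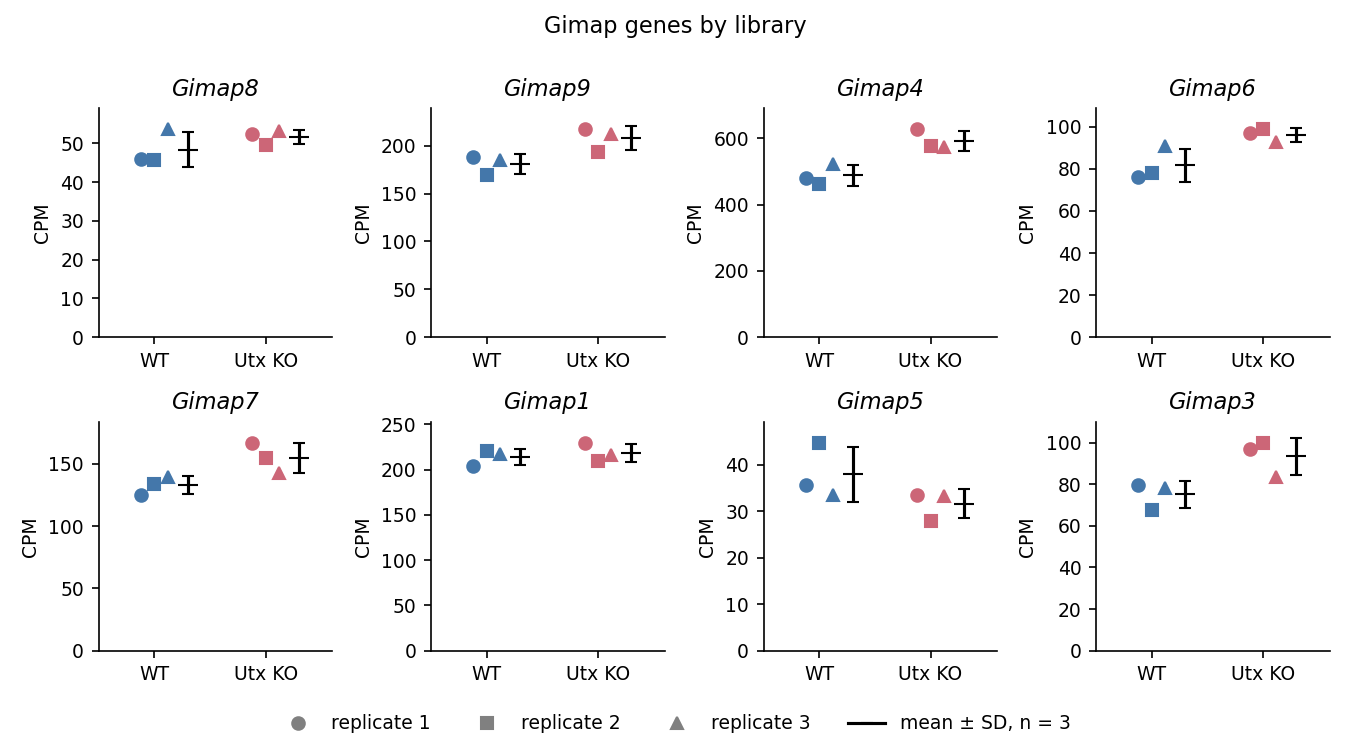
CPM of each Gimap gene (1 panel per gene, in chromosomal order, y axis from 0) in the 3 WT (blue) and 3 Utx KO (red) libraries; circles, squares and triangles are replicates 1, 2 and 3, and the black mark is the mean ± SD (n = 3). The Utx KO points lie above all WT points for Gimap9, Gimap4, Gimap6, Gimap7 and Gimap3, mix with them for Gimap8 and Gimap1, and lie just below them for Gimap5.

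Gimap4, which takes part in T-cell apoptosis, had the highest level of the family. The WT libraries, in the order of replicates 1, 2 and 3 used throughout, had 482, 461 and 523 CPM, and the Utx KO libraries 628, 576 and 574 CPM. All 3 Utx KO libraries were above all 3 WT libraries, with a gap of 51.3 CPM between the nearest values. The means were 488 ± 31.2 and 593 ± 30.4 CPM (SD, n = 3), a rise of 1.21-fold (95% interval 1.12 to 1.32, not adjusted for the number of genes) with a log2 fold change of 0.28 (SE 0.06, limma adjusted p = 0.00183). These values rest on 3174 reads in WT and 3518 in Utx KO. Counting alone would give SDs of 15.2 and 17.6 CPM, less than the spread between replicates. The call held under 16 of 17 other settings and was lost when limma's variance was not allowed to follow the expression level (adjusted p = 0.202; the range over all 17 was 0.000907 to 0.202).

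Gimap5, whose loss depletes T cells and which sits on lysosomal membranes, was the lowest of the family and the only one with a fitted difference below 0. It was at 35.6, 44.7 and 33.4 CPM in WT and at 33.4, 28 and 33.4 CPM in Utx KO. The highest Utx KO library was only 0.0108 CPM under the lowest WT library, less than 1 read is worth in any library, so the groups touch. Groups did not overlap in this direction for 12.6% of all genes tested. The means were 37.9 ± 6.00 and 31.6 ± 3.10 CPM (SD, n = 3; log2 fold change −0.25, 95% interval −0.57 to 0.07, limma adjusted p = 0.368). With 248 and 187 reads in the groups, the interval runs from 0.674-fold to 1.05-fold. Gm28053, a gene model that runs from the Gimap7 start into Gimap5 (48718607 to 48752644) and shares 43.7% of its 989 exonic bases with Gimap1, Gimap5 and Gimap7, was at 17.8 ± 3.82 and 22.7 ± 4.28 CPM (SD, n = 3, limma adjusted p = 0.356). Of its exonic bases 198 are also exonic in Gimap1, 153 in Gimap5 and 81 in Gimap7, and reads from these bases cannot be told apart. Yet none of the 50-base pieces of the last 300 bases of Gimap5, the end that a 3′ library tags, occurred in another gene. The sum of Gimap5 and Gm28053 is therefore a description and does not correct for shared reads. It was 52.2, 66.8 and 48.1 CPM in the WT libraries and 52.4, 55.4 and 55.0 CPM in the Utx KO libraries. The groups of this sum, which was formed after the single values were seen, overlapped, and its log2 fold change was −0.02 (limma adjusted p = 0.949).

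Gimap3, the close relative of Gimap5 that shares its reported link to Bcl2 proteins, was at 79.5, 67.7 and 78.2 CPM in WT and at 96.9, 99.95 and 83.4 CPM in Utx KO. The Utx KO libraries were all higher, the nearest by 3.91 CPM. The means of 75.2 ± 6.45 and 93.4 ± 8.82 CPM (SD, n = 3) gave the largest fitted difference of the 8, a log2 fold change of 0.31 (SE 0.11, 95% interval 0.09 to 0.53), which missed the threshold (limma adjusted p = 0.0649). It passed with edgeR on the reads (adjusted p = 0.0457), with limma-voom (adjusted p = 0.046) and without Utx KO replicate 3 (limma adjusted p = 0.0311), and over all 17 other settings the adjusted p ran from 0.0311 to 0.327. The ratio of Gimap3 to Gimap5 was 2.23, 1.52 and 2.34 in WT and 2.90, 3.57 and 2.5 in Utx KO, without overlap. With Gm28053 added to Gimap5 it was 1.52, 1.01 and 1.62 in WT and 1.85, 1.80 and 1.52 in Utx KO, and the groups overlapped. The pair was chosen after its values were seen, and the ratio was not tested. The sum of Gimap3 and Gimap5 was 113 ± 1.80 and 125 ± 7.24 CPM (SD, n = 3), without overlap. None of the 50-base pieces of the last 300 bases of Gimap5 occurred in another gene, and for Gimap3 it was 6.32% of the pieces, all in the gene model Gm38409.

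Gimap1, required for the survival of mature T and B cells, was at 204, 221 and 217 CPM in WT and at 230, 210 and 216 CPM in Utx KO. The groups overlapped, and the means of 214 ± 8.71 and 218 ± 10.2 CPM (SD, n = 3) differed by less than the SD of either. The log2 fold change was 0.03 (95% interval −0.12 to 0.18, limma adjusted p = 0.871), that is, 0.922-fold to 1.13-fold. The sign turned without WT replicate 1 (log2 fold change −0.0039) or without Utx KO replicate 1 (−0.0075). Of the exonic bases of Gimap1, 36.0% lie opposite the antisense gene Gimap1os, which is not analysed here. Whether the authors' counting used strand is not given in the sources used here, so it is not known whether reads of the pair were kept apart. Of the 50-base pieces of its last 300 bases, 7.11% occur in Gm10310 or Gm49762.

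Gimap6, which binds the Atg8-type protein Gabarapl2 and acts in autophagy, was at 76.3, 77.9 and 90.8 CPM in WT and at 96.9, 98.8 and 92.6 CPM in Utx KO. The groups were separated by 1.82 CPM, and WT replicate 3 lay next to the Utx KO libraries. The means were 81.7 ± 7.97 and 96.1 ± 3.16 CPM (SD, n = 3; log2 fold change 0.24, 95% interval 0.03 to 0.44, limma adjusted p = 0.153).

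Gimap7, a soluble member able to stimulate the GTPase activity of its relatives, was at 125, 134 and 140 CPM in WT and at 167, 155 and 143 CPM in Utx KO. The lowest Utx KO library was 3.15 CPM above the highest WT library. The log2 fold change was 0.22 (95% interval 0.04 to 0.39, limma adjusted p = 0.11). Gimap9 was at 189, 170 and 185 CPM in WT and at 217, 194 and 212 CPM in Utx KO. Its groups were separated by 5.02 CPM, with a log2 fold change of 0.20 (95% interval 0.04 to 0.35, limma adjusted p = 0.108). Neither gene passed the threshold under any of the 17 other settings, in which the adjusted p ran from 0.0648 to 0.407 for Gimap7 and from 0.0774 to 0.41 for Gimap9.

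Gimap8, the long member, was at 45.9, 45.6 and 53.6 CPM in WT and at 52.4, 49.7 and 53.1 CPM in Utx KO. WT replicate 3 was the highest of the 6 libraries, so the groups overlapped. The means of 48.4 ± 4.55 and 51.7 ± 1.81 CPM (SD, n = 3) gave a log2 fold change of 0.10 (95% interval −0.16 to 0.36, limma adjusted p = 0.706). Of the 8 intervals, those of Gimap8, Gimap1 and Gimap5 include 0, and the highest upper bound of any, that of Gimap3, is a 1.44-fold rise.

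**Figure D2:**
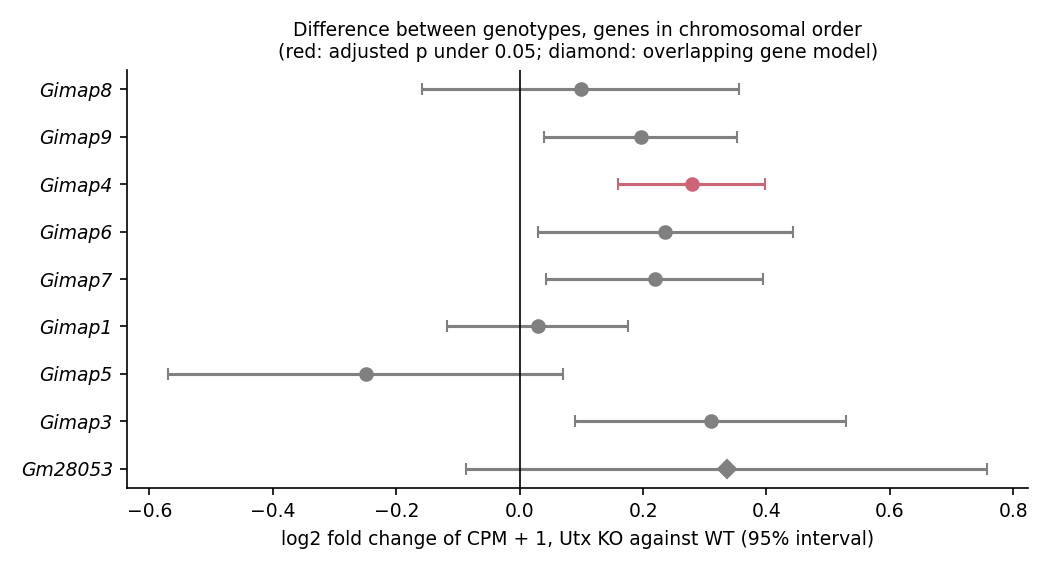
Log2 fold change of CPM + 1, Utx KO against WT, with its 95% interval (x axis), for the Gimap genes in chromosomal order and the overlapping model Gm28053 (diamond); red marks an adjusted p under 0.05. Gimap4 (0.28) is the marked gene, the intervals of Gimap8, Gimap1, Gimap5 and Gm28053 include 0, and Gimap5 (−0.25) is the member left of the line.

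Levels within the family spanned 12.9-fold between the highest and lowest WT means, and the order was the same in both genotypes: Gimap4, Gimap1, Gimap9, Gimap7, Gimap6, Gimap3, Gimap8 and Gimap5. In a 3′ end library each transcript gives about 1 tag, so these CPM values need no scaling by length, although tagging efficiency can differ between genes. Gimap6 and Gimap3 overlapped in range in both genotypes and Gimap1 and Gimap9 in Utx KO, while all other neighbours in the order had separate ranges. Gimap4 ranked 267 among the 10590 tested genes by mean CPM, and the least abundant WT mean, 37.9 CPM for Gimap5, was above the median tested gene (24.2 CPM).

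The 8 genes together made up 1236, 1221 and 1320 CPM in the WT libraries and 1521, 1411 and 1407 CPM in the Utx KO libraries. The sums did not overlap, at 1259 ± 53.4 and 1446 ± 64.7 CPM (SD, n = 3), 14.8% higher in Utx KO. With 3 libraries against 3 an exact permutation test cannot go below p = 0.10, and none is given for a sum over genes chosen with earlier results known. Gimap4 contributed 38.8 ± 0.916% of the sum in WT and 41.0 ± 0.261% in Utx KO (SD, n = 3), without overlap. Gimap1 contributed 17.0 ± 0.936% and 15.1 ± 0.231%, and Gimap5 3.02 ± 0.58% and 2.18 ± 0.194%, both lower in every Utx KO library. A share also depends on the other genes of the sum. In CPM Gimap1 was not lower, at 214 ± 8.71 in WT and 218 ± 10.2 in Utx KO (SD, n = 3), with overlap. The shares of the other 5 genes overlapped. Divided by the same sum, 33.8% of all genes tested did not overlap, 5.32% higher and 28.4% lower in Utx KO.

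**Figure D3:**
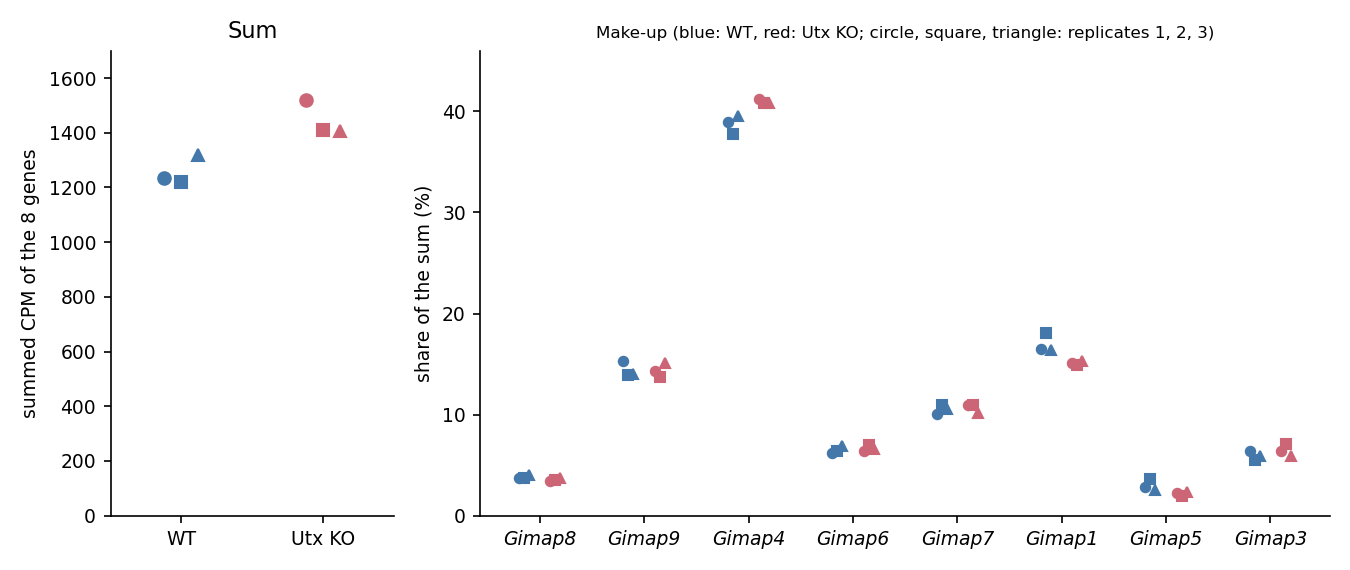
Left, summed CPM of the 8 Gimap genes in each library (y axis from 0); right, each gene's share of that sum in percent, with WT in blue, Utx KO in red, and circles, squares and triangles for replicates 1, 2 and 3. The sum is 1221 to 1320 CPM in WT and 1407 to 1521 CPM in Utx KO, and the shares of Gimap4 (higher) and of Gimap1 and Gimap5 (lower) are the ones that do not overlap.

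Several CD3 and CD8 genes were also higher in Utx KO, a direction in which 5.28% of all genes tested were called. Of the 5 tested T-cell markers, 3 rose: Cd3d, a CD3 chain of the T-cell receptor, from 544 ± 21.1 to 671 ± 14.6 CPM (SD, n = 3, limma adjusted p = 0.000224), Cd3e, another CD3 chain, from 164 ± 12 to 205 ± 12.3 CPM (adjusted p = 0.0085), and Cd8b1, the CD8 β chain, from 365 ± 14.3 to 417 ± 12 CPM (adjusted p = 0.0318). Cd8a was at 257 ± 15.6 and 292 ± 11.8 CPM (adjusted p = 0.0923), all from the same limma fit. The calls of Cd3d, Cd3e and Cd8b1 were lost under 1, 3 and 6 of 17 other settings. The sum of Cd3d, Cd3e, Cd3g, Cd8a and Cd8b1 was 1407, 1460 and 1516 CPM in the WT libraries and 1748, 1712 and 1732 CPM in the Utx KO libraries, 18.5% higher. Relative to this sum, a ratio formed after the values were seen, Gimap4 was at 34.2, 31.6 and 34.5% in WT and at 35.9, 33.7 and 33.1% in Utx KO. These groups overlapped, whereas the CPM values of Gimap4 did not. On this scale 0 Gimap genes were higher without overlap, 5 overlapped and 3 were lower: Gimap1 (14.6 ± 0.427 and 12.6 ± 0.468%), Gimap5 (2.60 ± 0.433 and 1.82 ± 0.163%) and Gimap8 (3.31 ± 0.211 and 2.99 ± 0.0825%; SD, n = 3). Among all genes tested, 39.5% did not overlap on this scale, 4.63% higher and 34.9% lower. The 8 genes together were at 86.2 ± 2.26% and 83.5 ± 3.06% of the T-cell marker sum (SD, n = 3), with overlap. The divisor was itself higher in Utx KO, so these ratios are a description and not a test. The part of the marker difference in the Gimap difference was not tested.

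**Figure D4:**
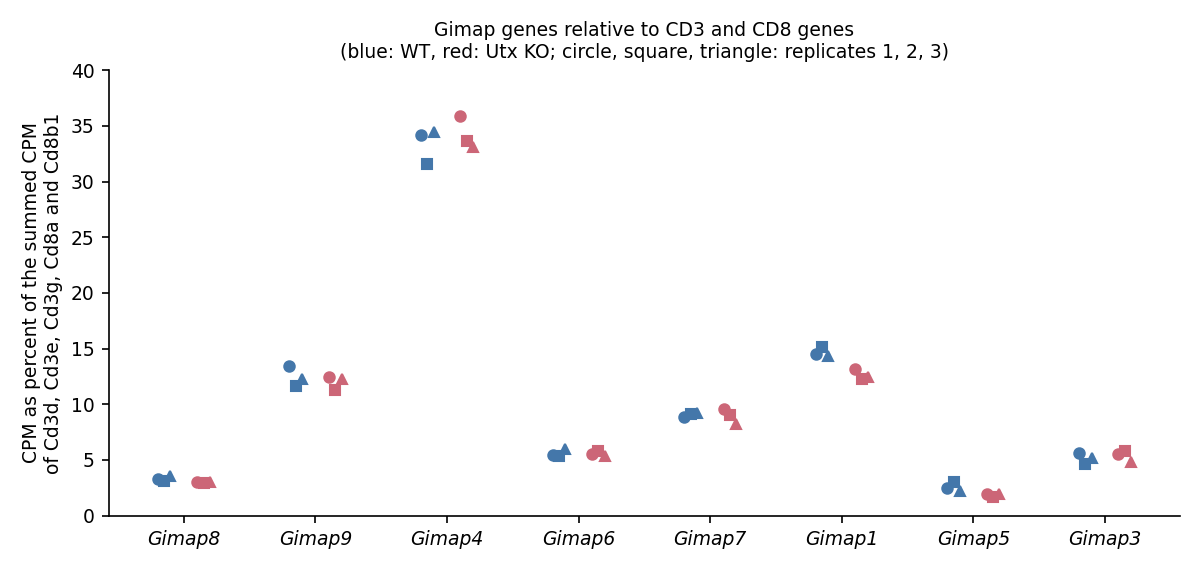
CPM of each Gimap gene as percent of the summed CPM of Cd3d, Cd3e, Cd3g, Cd8a and Cd8b1 in the same library (y axis from 0), with WT in blue, Utx KO in red, and circles, squares and triangles for replicates 1, 2 and 3. Gimap4 overlaps between the genotypes on this scale (31.6 to 34.5% and 33.1 to 35.9%), and Gimap1, Gimap5 and Gimap8 lie lower in every Utx KO library.

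Most of the tested genes flanking the cluster had low CPM values. Within 500 kb of its ends 51 other genes are annotated, of which 23 were listed, 10 of them at 0 in all libraries, and 13 were tested. Of the 13, which include Gm28053 inside the cluster, 1 passed the threshold, against 10.8% of all genes tested. Gpnmb, a transmembrane glycoprotein of macrophages and pigment cells, fell from 3.16, 1.84 and 4.38 CPM to 0.397, 0 and 0 CPM (log2 fold change −1.84 on the log2(CPM + 1) scale, limma adjusted p = 0.00902). Its values lie near the 3-read limit. It did not pass the stricter filters of edgeR, limma-voom and the 5 CPM minimum, and the call was lost with DESeq2 (adjusted p = 0.0909) and without WT replicate 1 (limma adjusted p = 0.0502) or WT replicate 3 (limma adjusted p = 0.0734). The fitted difference was above 0 for 10 of the 13 genes (median 0.37) and, without Gm28053, for 9 of 12 (median 0.43), against 51.0% of all genes tested (median 0.01). The nearest tested gene before the cluster, AI854703, was at 2.13 ± 0.577 and 0.323 ± 0.293 CPM (SD, n = 3, limma adjusted p = 0.087), and the nearest after it, Tmem176b, at 5.10 ± 1.12 and 8.40 ± 2.55 CPM (adjusted p = 0.259). Both were named after their values were seen. Intervals of these low genes were wide beside those of the Gimap genes, as the plot by position shows.

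**Figure D5:**
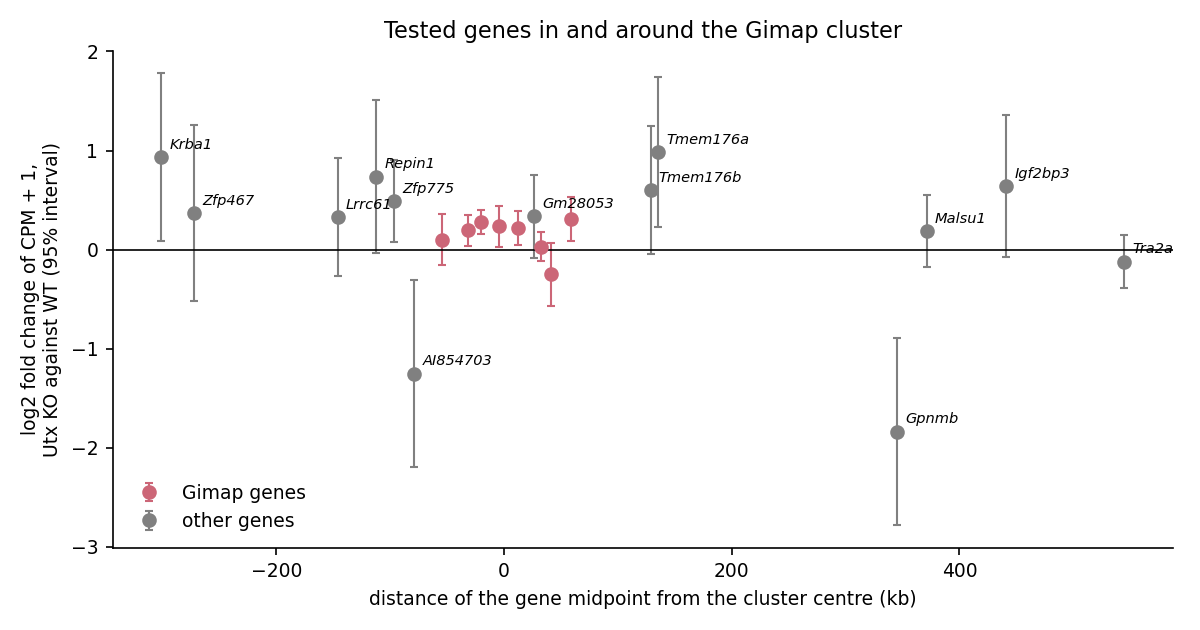
Log2 fold change of CPM + 1, Utx KO against WT, with its 95% interval (y axis) against the distance of the gene midpoint from the cluster centre in kb (x axis), for the Gimap genes (red) and the other tested genes of the window (grey, named). The Gimap genes lie between −0.25 and 0.31 with narrow intervals, and Gpnmb (−1.84) is the neighbour that passed the threshold.

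Partners and pathways linked to Gimap proteins were read from lists of known genes. Of 14 tested Bcl2-family genes, 1 rose and 2 fell (median log2 fold change −0.12, against 0.01 over all genes tested), and at an unadjusted p under 0.05 it was 2 and 4. Beside this and the following lists stand the shares over all genes tested, 5.28% higher and 5.51% lower at the adjusted threshold, and 11.8% and 10.9% unadjusted. Bbc3, the pro-apoptotic protein PUMA, rose from 9.88, 4.15 and 4.38 CPM in WT to 26.2, 20.6 and 22.2 CPM in Utx KO (log2 fold change 1.83, SE 0.28, limma adjusted p = 4.68e-05). Bcl2l11, the pro-apoptotic protein BIM that Gimap proteins have been reported to bind, fell from 114, 99.99 and 136 CPM to 80.2, 77.7 and 72.9 CPM (−0.59, SE 0.11, limma adjusted p = 0.000498; lost under 1 of 17 other settings). These 2 proteins of the BH3-only class have genes that moved in opposite directions, each without overlap between the groups. Mcl1, an anti-apoptotic member, fell from 180 ± 23.4 to 145 ± 13.6 CPM (SD, n = 3; −0.31, limma adjusted p = 0.034), although its groups overlapped and the call was lost under 7 of 17 other settings. Bax, a pore-forming effector, was at 32.6 ± 1.99 and 43.1 ± 5.05 CPM (limma adjusted p = 0.0948). The summed CPM of all 18 listed genes did not overlap between the groups, at 1797 to 1829 CPM in WT and 1677 to 1716 CPM in Utx KO. This sum was not tested.

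Of 26 tested genes of the Atg8 and autophagy list, 1 rose and 0 fell by limma (median log2 fold change 0.10), and at an unadjusted p under 0.05 it was 3 and 0. The 1 of 26 is no larger a share than the 5.28% of all genes tested that were called higher. Lamp1, a lysosomal membrane glycoprotein, rose from 105 ± 10.2 to 135 ± 11 CPM (SD, n = 3; 0.37, SE 0.10, limma adjusted p = 0.012), a call lost under 4 of 17 other settings. Wipi2, which recruits the lipidation machinery to forming autophagosomes, was at 27.9 ± 5.89 and 38.8 ± 3.21 CPM (limma adjusted p = 0.0642). The other 24 did not pass either, and the summed CPM of the whole list overlapped between the groups, at 1012 to 1065 CPM in WT and 1063 to 1150 CPM in Utx KO. Of 10 tested genes around GSK3, the kinase that Gimap5 has been reported to restrain, 0 rose and 2 fell by limma (median 0.05), and at an unadjusted p under 0.05 it was 1 and 2. With edgeR and DESeq2 0 rose in this list, and 0 fell in the autophagy list. Both are NFAT transcription factors, which GSK3 phosphorylates: Nfatc1 fell from 123 ± 4.44 to 90.8 ± 8.40 CPM (−0.43, limma adjusted p = 0.00309) and Nfatc2 from 54.7 ± 3.36 to 41.0 ± 5.99 CPM (−0.42, limma adjusted p = 0.0477). The Nfatc2 call was lost under 10 of 17 other settings and that of Nfatc1 under 1. The summed CPM of the GSK3 list overlapped, at 1125 to 1146 CPM in WT and 1107 to 1134 CPM in Utx KO.

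Gimap proteins are known to be abundant in resting T cells. Of 21 tested genes of that state 13 rose and 1 fell (median log2 fold change 0.30), against 5.28% and 5.51% of all genes tested, and the 13 became 7 with DESeq2 and 7 without limma's intensity trend; several of these changes were known from earlier results of these data, so they are not independent evidence of a direction. Lef1 and Satb1, nuclear regulators of T-cell identity, rose from 107 ± 11.6 to 248 ± 21 CPM and from 374 ± 17.0 to 594 ± 38.3 CPM (SD, n = 3; limma adjusted p = 4.1e-10 and 2.03e-08). Klf2, which keeps T cells quiescent and recirculating, rose from 43.4 ± 0.670 to 95.8 ± 3.37 CPM (1.12, limma adjusted p = 7.88e-08). Bach2, a repressor of effector differentiation, rose from 61.8 ± 9.50 to 131 ± 17.6 CPM (1.07, limma adjusted p = 5.99e-07). Foxo1, which drives Klf2 and other genes of quiescent cells, was the gene of the list that fell, from 115 ± 4.17 to 90.2 ± 11.1 CPM (−0.36, limma adjusted p = 0.02), and its call was lost under 6 of 17 other settings. The summed CPM of the list did not overlap, at 2049 to 2185 CPM in WT and 2760 to 2988 CPM in Utx KO, and was not tested.

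The genes whose log2(CPM + 1) followed Gimap4 most closely over the 6 libraries included Cd8b1 (Pearson r = 0.995) and Tbca, a tubulin-folding cofactor (r = 0.994), out of 7445 genes with a mean of at least 10 CPM. In WT and Utx KO, Tbca had means of 389 and 461 CPM. The 6 points share the difference between genotypes, and all genes of a library were scaled by the same read total. As 80 genes had r over 0.95, this likeness is a description.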

How the data were processed

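The authors deposited 1 table per library of CPM values (reads of a gene scaled to an equal total) for 25655 Ensembl gene identifiers, per the file headers. Libraries were made with a QuantSeq 3′ kit from 500 ng of total RNA, per the labels' protocols, and GRCm38 and mm10 are the builds in the submitters' processing notes. Neither the aligner nor the counter and its use of strand is given in the sources used here. Division by the value of 1 read gave whole reads for 100% of values above 0 (tolerance 0.001 reads), with 1619085 to 2529113 reads per library. Symbols matched 25600 identifiers; positions come from GENCODE (GRCm38) and upstream sequences from RefSeq.

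The test was limma-trend (limma 3.58.1, R 4.3.3) on log2(CPM + 1) with a single term for genotype. It covered the 10590 genes that reached 1 CPM in 3 libraries or more and was two-sided, with Benjamini-Hochberg adjustment and a threshold of 0.05. Fold changes on this scale understate those of low genes. Other settings were edgeR 4.0.16, DESeq2 1.42.0 and limma-voom on the recovered reads, other pseudocounts (0.1 and 0.5), no filter, a stricter filter (5 CPM), TMM and median-of-ratios scaling, a replicate block, no intensity trend, and leaving out each library. The scripts were tested on simulated data. As a count test, edgeR on the recovered reads called 1106 of 8832 genes (12.5%).

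The members and lists were chosen with earlier results of these data known. Named genes are all Gimap genes, Kdm6a, Kdm6b, called genes within 500 kb of the cluster, up to 4 genes per list by adjusted p, and the 3 genes most correlated with a called member, of which 1 is not reported here. Genes outside this rule are marked as such where named, and marker lists of other cell types are given as sums. Replicates of a group differed beyond sampling noise, with chi-square values of 1.33 to 2.00 per degree of freedom. Same-numbered WT and Utx KO libraries did not deviate together (correlations −0.0096 to 0.0060), so numbers were not treated as pairs. Protein features were not used here.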

Additional observations from a re-analysis of the deposited data

How the results depend on the processing

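The direction of every Gimap gene but Gimap1 was the same under all other settings run. That of Gimap1 turned without WT replicate 1 (−0.0039) and without Utx KO replicate 1 (−0.0075); leaving out 1 library at a time it ran from −0.0075 to 0.058. For Gimap4 the log2 fold change without an intensity trend was again 0.28, but it missed the threshold (limma adjusted p = 0.202). For Gimap3 it was 0.32 with both edgeR and limma-voom, which called it, and 0.24 to 0.39 with 1 library left out. The number of Gimap genes called higher was 2 with edgeR and limma-voom, 0 without the trend, and 1 to 2 with 1 library left out. The cause was not tested.

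Over all genes, 552 passed with DESeq2 (241 higher, 311 lower) and 383 without the trend (167 higher, 216 lower), against 1142. With 1 library left out the counts were 754 to 1042 in all, 362 to 473 higher and 392 to 569 lower, the lowest total without WT replicate 2. Among neighbours of the cluster 0 passed with edgeR, DESeq2, limma-voom and the stricter filter, 2 without a filter or without the trend, and 0 to 2 with 1 library left out. With DESeq2 the lists had 1 lower Bcl2-family gene, 0 higher autophagy genes, 7 higher and 0 lower resting T-cell genes, 1 lower GSK3-linked gene and 1 higher CD8 T-cell marker. Without the trend these were 0, 0, 7, 0, 0 and 0. With edgeR and limma-voom 2 autophagy genes were higher. With a pseudocount of 0.1, 1 Bcl2-family and 1 GSK3-linked gene were lower, and without a filter 1 GSK3-linked gene. With 1 library left out, lower Bcl2-family genes numbered 1 to 2, higher autophagy genes 0 to 2, lower resting T-cell genes 0 to 1, lower GSK3-linked genes 1 to 2 and higher CD8 T-cell markers 1 to 3.

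With the replicate number as a replicate block, 1065 genes passed (515 higher, 550 lower), Gimap4 had an adjusted p of 0.00335 and Gimap3 of 0.0819, and 1 GSK3-linked gene was lower; no Gimap call differed. The labels do not tie the numbers to a shared animal or day. Scaling by TMM or median of ratios moved the median of all genes by under 0.01 (log2). Depth limits Gimap5 most, with 187 reads in 3 Utx KO libraries.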
